A study of Mus musculus with 12 samples.

Results

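Itln1, Klk1b22 and Ccnb1ip1 had no read in any of the 3 libraries of a Tcf7-deleted group of mouse bone marrow progenitors, although each was counted in all 9 libraries of the other 3 groups. The 3 genes were chosen for that pattern. They are 3 of the 22 genes with it among the 39017 genes of the count table, and those whose lowest count in the 9 other libraries was highest. The absence from that group is therefore a description of how the genes were picked and was not tested. Tests on the 3 genes were made among the other 3 groups, and tests involving the chosen group were made on other genes. The choice asked for a count in each library of those 3 groups and fell on the genes with the highest lowest count there. It did not compare those groups with each other.

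The libraries were made from bone marrow sorted as Lin- Sca1+ cKit+ (LSK), the fraction that contains blood stem cells and multipotent progenitors, in 4 groups of 3 libraries. The wild-type group, labelled NOTCHWT_TCFWT, is called RAD here after the sample names. RNIC-CTRL (labelled NICD_TCFWT) carries R26 N1IC lox/+ with Mx1Cre, where N1IC is the constitutively active intracellular part of Notch1. RNIC-Tg (labelled NICD_TCFKO) carries R26 N1IC lox/+ and Tcf7 lox/lox with Mx1Cre, and Tcf7-Tg (labelled NOTCHWT_TCFKO) carries Tcf7 lox/lox with Mx1Cre. All mice were C57BL/6J; Sv/129, received poly(I:C) at 2 ug/g, and share batch 1. Batch 1 is a label, and a single sequencing run cannot be assumed from it. The number that ends each sample name recurs within RAD, within RNIC-CTRL, and between an RNIC-CTRL and an RNIC-Tg library. Each repeat involves a replicate 3 library. No RAD number occurs in another group, and no Tcf7-Tg number recurs. Mx1Cre is switched on by interferon, which poly(I:C) induces, so recombination is not limited to LSK cells. Cells of both RNIC groups were also gated as CD45.2+ eGFP+, and the labels do not say whether the 3 libraries of a group come from separate mice.

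The 3 genes have no common role. Itln1 encodes intelectin 1, a secreted lectin that binds glycans on microbes and is known from goblet and Paneth cells of the intestine. Mouse strains differ in their set of intelectin genes, and C57BL/6 mice have a shorter intelectin locus than 129 mice. Klk1b22 encodes a glandular kallikrein, a secreted serine protease of a family expanded in a tandem cluster in the mouse and best known from the salivary gland. Ccnb1ip1 encodes HEI10, a RING-type E3 ligase that binds cyclin B1 and is needed for crossovers between homologous chromosomes in meiosis.

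The genes lie on 3 different chromosomes of the mm10 (GRCm38) build, with exon models from GENCODE M21. Itln1 (ENSMUSG00000038209) spans chr1:171518122-171535294 on the minus strand, Klk1b22 (ENSMUSG00000060177) chr7:44112673-44116922 on the plus strand, and Ccnb1ip1 (ENSMUSG00000071470) chr14:50789248-50807732 on the minus strand. Their promoters are shown because the 3 genes are absent together: each run is 300 bases from RefSeq (GRCm38.p6), 250 before and 50 after the RefSeq start, 5′ to 3′ along the gene. They cover chr1:171535245-171535544 (minus), chr7:44112423-44112722 (plus) and chr14:50795679-50795978 (minus), and the Ccnb1ip1 window lies inside the GENCODE gene model, whose 5′ end at 50807732 is the start used for distances below. Capitals mark the single match to a searched motif, the core bound by RBPJ, the DNA-binding partner of Notch.
Itln1: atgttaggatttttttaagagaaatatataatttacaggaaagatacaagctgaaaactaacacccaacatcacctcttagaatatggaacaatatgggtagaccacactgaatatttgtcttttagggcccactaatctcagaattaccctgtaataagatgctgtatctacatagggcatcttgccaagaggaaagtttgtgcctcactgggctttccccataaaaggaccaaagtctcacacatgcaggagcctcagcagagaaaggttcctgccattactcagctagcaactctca
Klk1b22: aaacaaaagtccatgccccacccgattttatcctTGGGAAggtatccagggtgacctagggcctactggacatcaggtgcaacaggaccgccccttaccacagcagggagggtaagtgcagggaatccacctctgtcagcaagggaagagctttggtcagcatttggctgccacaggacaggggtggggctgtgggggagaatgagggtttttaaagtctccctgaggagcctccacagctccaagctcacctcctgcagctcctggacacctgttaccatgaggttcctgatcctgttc
Ccnb1ip1: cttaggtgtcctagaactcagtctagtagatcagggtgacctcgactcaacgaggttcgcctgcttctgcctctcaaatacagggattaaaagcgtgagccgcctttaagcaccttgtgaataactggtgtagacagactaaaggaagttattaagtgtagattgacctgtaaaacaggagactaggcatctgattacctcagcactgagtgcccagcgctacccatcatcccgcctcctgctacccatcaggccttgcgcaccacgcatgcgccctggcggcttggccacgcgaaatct
The promoters differ in composition. Ccnb1ip1 holds 13 CG pairs at a GC content of 52%, Klk1b22 holds 2 at 56%, and Itln1 holds 0 at 40.3%, beside medians of 7 pairs and 52.7% over 32851 RefSeq promoters of that length. The TCF/LEF core CTTTGA, the DNA word read by the protein that Tcf7 encodes, was not found on either strand of the 3 windows and is present in 16.0% of all promoters. The RBPJ core TGGGAA occurs in the Klk1b22 window only, starting 216 bases before the start, and in 25.6% of all promoters. TATAAA was not found in the 3 windows and is in 13.6% of all promoters. A match or its lack describes these letters and this window alone.

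Total counts ran from 30453271 to 43790674 per library, and those of the Tcf7-Tg libraries from 37488803 to 40357607. The genes behind the labels followed them only in part. Tcf7 was lowest in Tcf7-Tg, as that label has it, but other values went against the labels. Tcf7 was at 603 ± 300 CPM (counts scaled to a common library size; mean ± SD, n = 3) in RNIC-Tg, which is labelled as Tcf7-deleted, against 14.8 ± 4.54 in RAD, 5.50 ± 1.11 in RNIC-CTRL and 1.28 ± 1.31 in Tcf7-Tg. Dtx1, a Notch target, was at 85.4 ± 5.67 CPM in RAD and 121 ± 51.3 in RNIC-Tg, but at 0.124 ± 0.0602 in RNIC-CTRL and 0.208 ± 0.189 in Tcf7-Tg. Group names below therefore stand for the libraries so labelled. Kit, part of the sorting gate, was at group means of 644 to 812 CPM. Tcf7-Tg replicate 1 holds both Xist (2156 CPM) and Y-linked transcripts (157 CPM), while replicate 2 has Xist alone (3253 CPM) and replicate 3 Y-linked transcripts alone (339 CPM). The 3 genes are at 0 in each of them. The other groups differ in these transcripts too. Every RAD library holds Xist (3547 to 4603 CPM), with Y-linked transcripts at 2.38 to 2.88 CPM. RNIC-CTRL replicates 1 and 2 (311 and 331 CPM) and RNIC-Tg replicate 1 (357 CPM) hold Y-linked transcripts, and the rest of both groups Xist.

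Itln1 had 436, 363 and 580 counts in the 3 RAD libraries, 136, 200 and 134 in RNIC-CTRL, 342, 418 and 484 in RNIC-Tg, and 0, 0 and 0 in Tcf7-Tg. Every RNIC-CTRL library lies below every RAD and RNIC-Tg library, whereas RAD and RNIC-Tg overlap after scaling. The level was 12.7 ± 0.777 CPM in RAD, 4.15 ± 0.858 in RNIC-CTRL and 10.2 ± 1.75 in RNIC-Tg (SD, n = 3). Itln1 was the steadiest of the 3 genes within groups, with coefficients of variation of 6.11%, 20.6% and 17.1%.

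Klk1b22 had 414, 231 and 537 counts in RAD, 565, 502 and 846 in RNIC-CTRL, 656, 295 and 1103 in RNIC-Tg, and 0 in each Tcf7-Tg library. RNIC-Tg holds both the highest and the lowest CPM of the 9 libraries with counts, so its range encloses the other groups. The means were 10.7 ± 2.67, 17.0 ± 5.20 and 17.0 ± 10.2 CPM in RAD, RNIC-CTRL and RNIC-Tg.

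Ccnb1ip1 had 99, 35 and 483 counts in RAD, 82, 72 and 163 in RNIC-CTRL, 68, 231 and 333 in RNIC-Tg, and 0 in each Tcf7-Tg library. The 3 groups with counts overlap, and RAD replicate 3 is the highest of the 9. The means were 5.10 ± 5.42, 2.83 ± 1.38 and 5.20 ± 3.31 CPM, and the coefficient of variation in RAD reached 106%. Across the 9 libraries the highest CPM was 9.74 times the lowest for Ccnb1ip1, against 3.73 times for Itln1 and 3.85 times for Klk1b22.

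**Figure D1:**
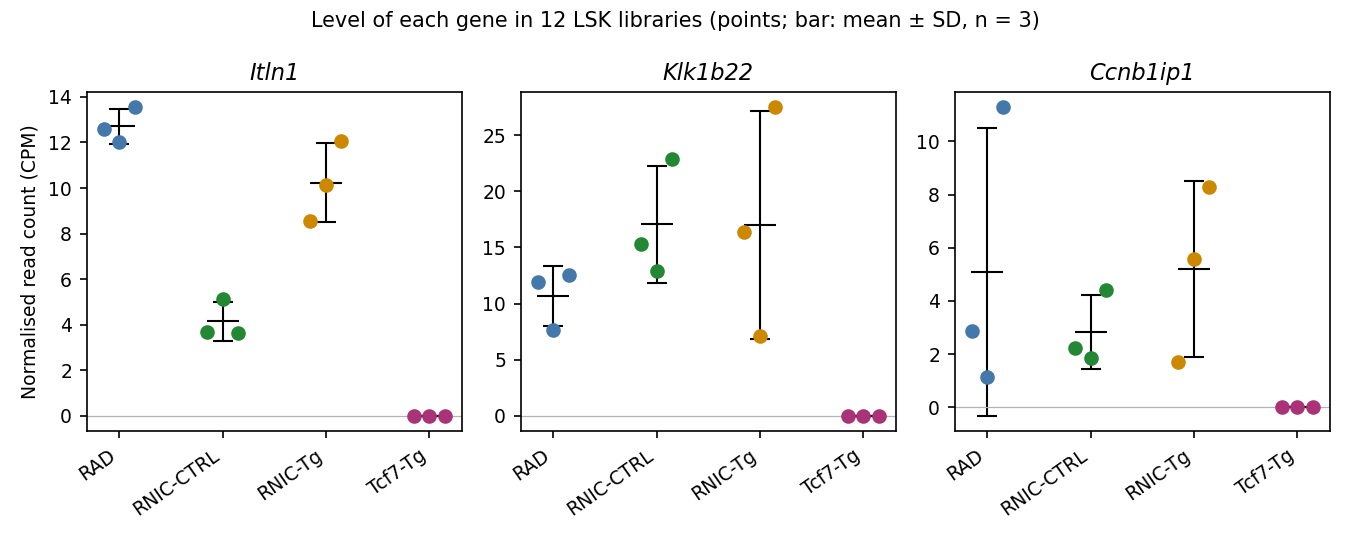
Level of Itln1, Klk1b22 and Ccnb1ip1 in CPM by group, with 1 point per library and bars for the mean and SD of 3 libraries. All 3 genes are at 0 in the Tcf7-Tg libraries; Itln1 is lower in RNIC-CTRL (4.15 CPM) than in RAD (12.7 CPM), and Ccnb1ip1 spreads most within groups.

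These levels lie below the middle of the genes tested. The median over the 9 libraries was 10.1 CPM for Itln1, 12.9 for Klk1b22 and 2.86 for Ccnb1ip1, above 39.0%, 41.6% and 27.9% of the 16024 genes tested. Per kilobase of exon, Klk1b22 had the highest level (17.4 ± 7.80 CPM per kb; SD, n = 9), followed by Itln1 (7.92 ± 3.47) and Ccnb1ip1 (2.32 ± 1.83). A count of 0 in the Tcf7-Tg library with the fewest scaled counts allows up to 3 counts, or 0.0797 CPM, which covers counting error only. Against that limit the lowest other library was at least 45.5-fold higher for Itln1, at least 89.6-fold higher for Klk1b22 and at least 14.5-fold higher for Ccnb1ip1. Among all genes tested, 3.79% had every Tcf7-Tg library below every other library. In bulk libraries fewer cells of a type and less RNA per cell cannot be told apart.

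Itln1 changed among the other 3 groups. The choice of genes drew on the lowest count over their libraries but did not compare the groups. It was lower in RNIC-CTRL than in RAD by a log2 fold change of -1.61 ± 0.21 (SE; edgeR's quasi-likelihood test, Benjamini-Hochberg adjusted p = 0.00103), in 3 of 3 libraries, and higher in RNIC-Tg than in RNIC-CTRL by 1.30 ± 0.20 (edgeR adjusted p = 0.00512), again in 3 of 3. Of all genes tested, 20.4% passed the first test (9.75% lower) and 12.4% the second (7.25% higher), and in 44.2% and 38% the libraries did not overlap. Both comparisons share the RNIC-CTRL libraries. Of these, replicates 1 and 2 hold Y-linked transcripts, while every RAD library holds Xist, and the part of sex in these differences was not tested. RNIC-Tg and RAD differed by -0.31 ± 0.20 (edgeR adjusted p = 0.415), where 6.3% of genes passed and the libraries of 25.9% did not overlap. The order of Itln1 over these groups, with RNIC-CTRL lowest, is also that of Tcf7, Notch1 and Dtx1 apart from the exchange of the 2 higher groups; Notch1 was at 571 ± 44.4 CPM in RAD, 180 ± 19.9 in RNIC-CTRL and 774 ± 160 in RNIC-Tg. The part of these genes in the change of Itln1 was not tested.

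For Klk1b22 and Ccnb1ip1 no difference among these groups passed the test. Klk1b22 was at 0.67 ± 0.45 in RNIC-CTRL against RAD on the log2 scale (edgeR adjusted p = 0.341), and although its libraries did not overlap there, that holds for 44.2% of genes. The same gene gave 0.67 ± 0.45 in RNIC-Tg against RAD (edgeR adjusted p = 0.443), where the libraries overlap, and -0.0034 ± 0.45 in RNIC-Tg against RNIC-CTRL (edgeR adjusted p = 0.997). Ccnb1ip1 gave -0.85 ± 0.85 in RNIC-CTRL against RAD (edgeR adjusted p = 0.533) and 0.88 ± 0.85 in RNIC-Tg against RNIC-CTRL (edgeR adjusted p = 0.545). Its RNIC-Tg and RAD means differed by 0.02 ± 0.84 (edgeR adjusted p = 0.994). The standard errors of Klk1b22 and Ccnb1ip1 were larger than those of Itln1 in each comparison.

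The pattern that chose the genes was also counted in the other groups, as a description. When at least 10 counts were asked of every other library, 5 genes were at 0 only in Tcf7-Tg, 1 only in RAD, 0 only in RNIC-CTRL and 0 only in RNIC-Tg. At a minimum of 50 counts the number was 2 for Tcf7-Tg (Itln1 and Klk1b22) and 0 for the other groups, whereas at a minimum of 1 count it was 22 for Tcf7-Tg, 30 for RAD, 6 for RNIC-CTRL and 8 for RNIC-Tg. The pattern at low counts was thus most frequent in RAD, which includes the shallowest library, and at high counts it was present in Tcf7-Tg alone. From a minimum of 20 counts on, its only genes are the chosen ones (3 at 20), so nothing is read from that difference.

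**Figure D2:**
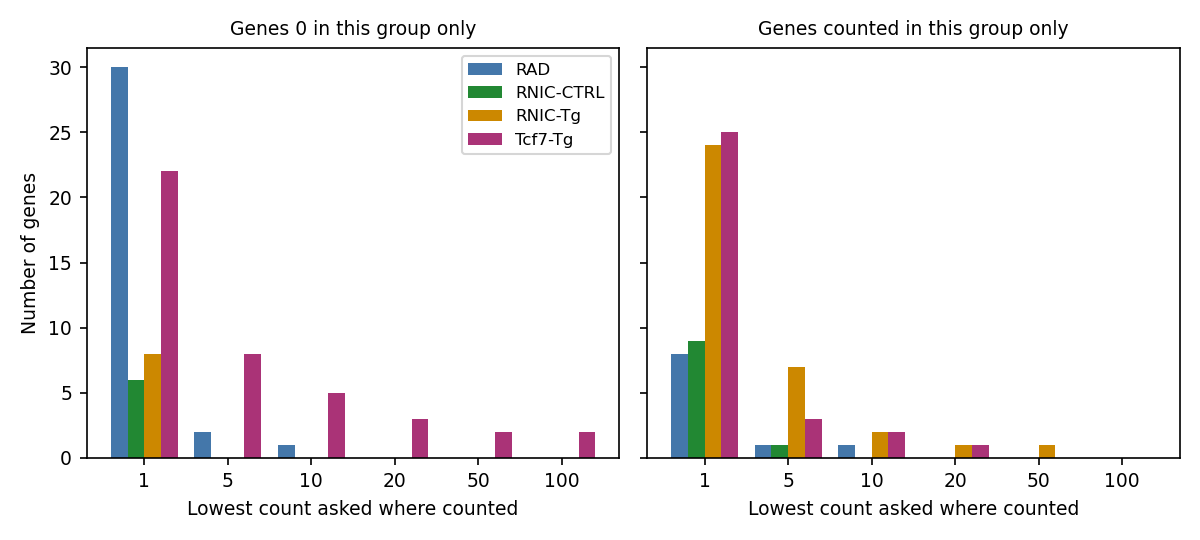
Number of genes at 0 counts in all 3 libraries of 1 group (left) or counted in 1 group alone (right), against the minimum count asked of each library where they are counted, with 1 bar per group. On the left RAD leads at a minimum of 1 count (30 genes) and Tcf7-Tg from 5 counts on (8 genes), with 2 genes at a minimum of 100 (the chosen Itln1 and Klk1b22).

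The next genes inside the same pattern had lower lowest counts, though some reached higher counts in single libraries than Ccnb1ip1. Gm8210, a processed pseudogene on chromosome 1, had 12 to 78 counts in the 9 other libraries, and Slc5a9, a sodium-coupled sugar transporter, had 10 to 449. Catsperg2, a sperm ion channel subunit gene on chromosome 7, had 9 to 60, Trbj1-1, a joining segment of the T cell receptor beta locus, 7 to 2100, and Olfr90, an olfactory receptor gene, 5 to 22. Wsb2-ps and Ugt1a8 followed, with lowest counts of 4 and 3. Just outside the pattern, with 1 to 3 counts in the Tcf7-Tg libraries together, were Gm12666 (110 to 237 counts elsewhere), Lvrn (28 to 282), the interferon-inducible gene Ifi202b (21 to 216), Trbj1-4 and Gm7224. Ifi202b starts 2.45 Mb from Itln1, and Gm7224, an unprocessed pseudogene, 2.06 Mb from Klk1b22.

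**Figure D3:**
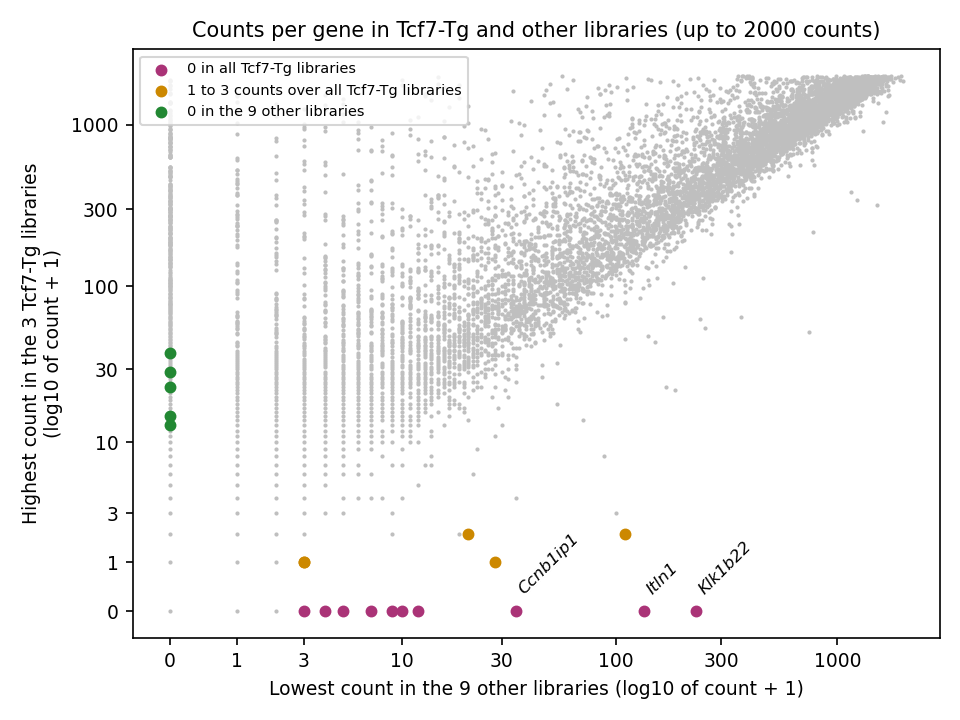
Highest count in the 3 Tcf7-Tg libraries against the lowest count in the 9 other libraries, as log10 of count + 1, in grey for genes up to 2000 counts on each axis and in colour for the named genes of the pattern and on each side of it. Itln1 (134), Klk1b22 (231) and Ccnb1ip1 (35) lie furthest to the right on the line of 0 counts in Tcf7-Tg.

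Stretches of read length were compared between the 3 genes and all other GENCODE M21 transcripts, by exact match on either strand. None of the 1132 stretches of 75 bases (the read length) in Itln1 transcripts occurs in another gene's transcripts. In Klk1b22, 3 of 781 stretches (0.384%) also occur in Klk1b16, and in Ccnb1ip1 159 of 1805 (8.81%) also occur in Rpph1, a noncoding RNA gene on the same strand whose exon overlaps Ccnb1ip1 by 233 bases. Rpph1, with 1 to 27 counts in the Tcf7-Tg libraries and 6 to 73 elsewhere, was not absent where Ccnb1ip1 was. How reads shared by overlapping genes were assigned, and whether strand was used, is not given in the sources used here.

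Klk1b22 stood alone in its cluster. Of the 26 other kallikrein genes, 9 had any count and 2 were counted deeply enough to be tested. Klk1b21 and Klk1b16, the members on either side of Klk1b22, had 0 counts in all 12 libraries, as had 17 of the 26 in total. Klk1b27 had 3 counts, all in RNIC-Tg, while Klk1 with 4 and Klk1b11 with 2 were counted in Tcf7-Tg only. Klk8 had 648 to 1227 counts in Tcf7-Tg and 973 to 1735 elsewhere, and was lower in Tcf7-Tg than in the mean of the other groups by -0.75 ± 0.18 (edgeR adjusted p = 0.0161; 17.6% of all genes passed this test in either direction). Without Tcf7-Tg replicate 1 or 2 the adjusted p of Klk8 in edgeR was 0.0811 or 0.0708. Klk7 gave -1.17 ± 0.61 (edgeR adjusted p = 0.214).

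Most tested genes near the members were counted in Tcf7-Tg. Within 500 kb of the 3 start sites 147 other genes are annotated, 97 had a count and 70 were tested, of which 8 were higher and 7 lower in Tcf7-Tg than in the mean of the other groups, that is 21.4% beside 17.6% of all genes (9.23% higher, 8.37% lower). The median log2 fold change of the 70 was -0.03, beside 0.00 over all genes tested. By gene, 10 of 33 neighbours of Itln1 passed (5 higher, 5 lower), 2 of 21 of Klk1b22 (1 and 1) and 3 of 16 of Ccnb1ip1 (2 and 1). Without Tcf7-Tg replicate 3 the number of higher neighbours was 13, and without replicate 1 or 2 the number of lower neighbours was 2 or 4.

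The nearest tested gene beside Itln1 shared its absence. Gm9765, an unprocessed pseudogene that starts 20.1 kb away, had 10, 13 and 14 counts in RAD, 6, 0 and 3 in RNIC-CTRL, 9, 5 and 19 in RNIC-Tg, and 0 in each Tcf7-Tg library. The 20.1 kb is counted between starts. Gm9765 ends at 171516922 and the 3′ end of Itln1 lies at 171518122, so their reads may not be separable. Whether the counts of Gm9765 are reads that run past Itln1 was not tested. Gm9765 is lowest in RNIC-CTRL, as Itln1 is. Its fitted log2 fold change of -5.94 ± 1.4 rests on counts of 0 and is no bound (edgeR adjusted p = 0.0200, and 0.063 or 0.0611 without Tcf7-Tg replicate 1 or 2). On the other side Cd244a, a receptor of the SLAM family, starts 23.9 kb away and was lower by -1.01 ± 0.19 (edgeR adjusted p = 0.00589). Cd244a was at 27.9 to 51.5 CPM in Tcf7-Tg and 41.8 to 113 elsewhere, so its libraries overlap.

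Further along the same side, SLAM family genes moved in both directions. Cd48 was at 98.1 to 113 CPM in Tcf7-Tg and 166 to 361 elsewhere, a change of -1.16 ± 0.15 (edgeR adjusted p = 0.000641), and Ly9 was higher by 0.79 ± 0.11 (edgeR adjusted p = 0.000949). Ly9 was at 45.3 to 53.9 CPM in Tcf7-Tg and 12.4 to 60.6 elsewhere, so the difference holds against the mean of the other groups and the libraries overlap. Ly9 lies within Cd244a on the opposite strand, so their reads may not be separable. Pcp4l1 (2.24 ± 0.33, edgeR adjusted p = 0.00179) and Gm10521 (1.39 ± 0.21, edgeR adjusted p = 0.00168) rose against that mean as well; Pcp4l1 overlaps (40.5 to 44 CPM against 1.4 to 58.2) and Gm10521 does not (6.29 to 7.59 against 1.32 to 5.35). Fcgr3, an Fc receptor gene of macrophages and other myeloid cells, rose by 3.93 ± 0.68 (edgeR adjusted p = 0.00498), in libraries whose macrophage markers were high (values below).

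Around Klk1b22 and Ccnb1ip1 fewer genes changed. Besides Klk8, Siglece, a sialic acid receptor of myeloid cells 453 kb from Klk1b22, was higher by 1.73 ± 0.42 (edgeR adjusted p = 0.0170, and 0.209 without Tcf7-Tg replicate 2). On the other side of Klk1b22 the nearest tested gene, 1700028J19Rik at 134 kb, gave -0.48 ± 0.30 (edgeR adjusted p = 0.290). Next to Ccnb1ip1, Ttc5 was at 42.1 to 48.6 CPM in Tcf7-Tg and 44.4 to 52.3 elsewhere, a difference of -0.13 ± 0.07 (edgeR adjusted p = 0.223), and Rpph1 gave -0.22 ± 0.80 (edgeR adjusted p = 0.880). Ang, a secreted ribonuclease, rose by 1.46 ± 0.30 (edgeR adjusted p = 0.00783), with levels of 1.11 to 1.54 CPM against 0.233 to 1.03. Ang lies within the span of Rnase4, so their reads may not be separable. Gm26782, annotated antisense to Tep1, rose by 1.04 ± 0.23 (edgeR adjusted p = 0.0115, and 0.0562 without Tcf7-Tg replicate 1). Rnase6, another ribonuclease, fell by 0.44 on the log2 scale (edgeR adjusted p = 0.0290), a call lost with a replicate block (0.0606) and in 4 of 12 fits without 1 library.

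**Figure D4:**
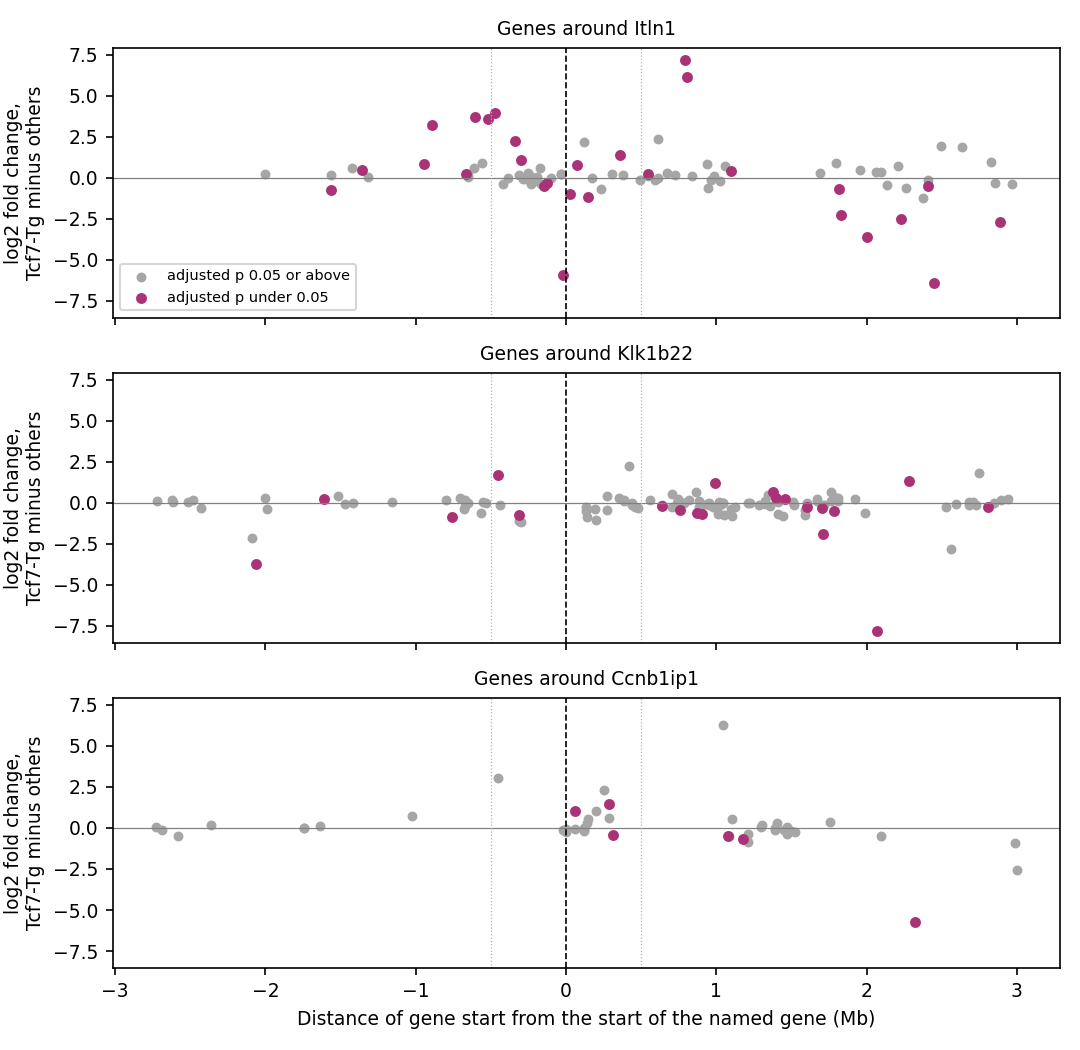
Log2 fold change of Tcf7-Tg against the mean of the other groups for the 260 tested genes within 3 Mb, by distance from the start of Itln1, Klk1b22 or Ccnb1ip1 (dashed line), with purple points for adjusted p under 0.05 and dotted lines at 500 kb. Inside the dotted lines Gm9765 beside Itln1, at -5.94, is the lowest point, and called genes are most frequent around Itln1.

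Goblet and Paneth cell genes, the intestinal setting of Itln1, were low. Of 15 goblet and Paneth cell genes 14 were matched, 6 had a count and 1 was tested, and none passed. The tested gene was Zg16, a secreted goblet cell lectin, with 0.727 to 1.89 CPM in Tcf7-Tg and 0.0543 to 3.94 elsewhere (1.09 ± 0.75, edgeR adjusted p = 0.345). Over all libraries Lyz1 had 67 counts, Muc2, the main intestinal mucin, 20 and Tff3 4. The summed level of the 14 matched genes was 0.264 to 4.08 CPM in RAD, 0.190 to 0.974 in RNIC-CTRL, 0.175 to 0.872 in RNIC-Tg and 0.970 to 2.52 in Tcf7-Tg. Zg16 alone reached 3.94 CPM in RAD. Of 7 epithelial genes 6 were tested and none passed. The comparison is again Tcf7-Tg against the mean of the other groups.

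No other meiotic gene examined was absent from Tcf7-Tg and counted in every other library, as Ccnb1ip1 was. Of 21 tested genes for meiotic crossover and recombination, 3 were higher and 2 lower in Tcf7-Tg, beside 9.23% and 8.37% of all genes, with a median log2 fold change of -0.08. The lower ones numbered 6 in DESeq2 and 1 without Tcf7-Tg replicate 1. Dmc1, the meiotic recombinase, rose by 1.9 ± 0.32 (edgeR adjusted p = 0.00298), and so did Mei4 (1.33 ± 0.25, edgeR adjusted p = 0.00559) and the meiotic cohesin Rec8 (1.09 ± 0.21, edgeR adjusted p = 0.00560), all against the mean of the other groups. Mei4 was at 5.73 ± 0.890 CPM in Tcf7-Tg and 5.42 ± 0.827 in RNIC-CTRL. Spo11, which makes the breaks that start meiotic recombination, fell by 1.08 (edgeR adjusted p = 0.00328), and Meiob, named after its value was seen, changed by -3.27 ± 0.71 (edgeR adjusted p = 0.0115). Spo11 was at 5.92 to 9.82 CPM in Tcf7-Tg and 10.6 to 25.0 elsewhere, and Meiob at 0.0485 to 0.876 and 1.31 to 6.68. Neither overlaps, and 3.79% of all genes tested had every Tcf7-Tg library below every other. Rnf212, the crossover factor that works with HEI10, had 21 counts in all and was not tested.

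The cyclin B side of Ccnb1ip1 was well expressed in every group. Of 12 tested cyclin B and mitotic kinase genes, 2 were higher and 0 lower, beside 9.23% and 8.37% of all genes, and with a replicate block or without any single Tcf7-Tg library 1 was higher. Ccnb1 itself rose by 0.65 ± 0.14 (edgeR adjusted p = 0.0108) and Wee1, the kinase that holds cyclin B with Cdk1 inactive, by 0.31 ± 0.08 (edgeR adjusted p = 0.0228), where Wee1 was at 65.9 ± 8.65 CPM in Tcf7-Tg and 62.7 ± 4.60 in RNIC-CTRL. Ccnb1 was no longer called without Tcf7-Tg replicate 2, nor Wee1 without Tcf7-Tg replicate 1 or 3 or with the block (edgeR adjusted p = 0.0504).

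The 3 list genes known to differ between C57BL/6J and 129 mice were examined because all libraries carry the mixed strain label. Nnt, which has an internal deletion in C57BL/6J, was at 115 ± 10.3 CPM in RAD, 116 ± 2.67 in RNIC-CTRL, 112 ± 5.13 in RNIC-Tg and 142 ± 4.02 in Tcf7-Tg, higher in the last by 0.31 ± 0.06 (edgeR adjusted p = 0.00466). Of all genes tested, 9.23% were called higher in this comparison. Casp4 gave -0.14 ± 0.14 (edgeR adjusted p = 0.531) and Disc1 0.30 ± 0.20 (edgeR adjusted p = 0.321). Counts per gene hold no alleles, and whether the Tcf7-Tg libraries carry another parental copy at Itln1, Klk1b22 or Ccnb1ip1 was not tested.

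Cell markers moved with the same libraries. All 10 resident macrophage markers were higher in Tcf7-Tg, with a summed level of 356 to 480 CPM against 16.0 to 16.6 in RAD, 24.8 to 29.6 in RNIC-CTRL and 14.5 to 28.0 in RNIC-Tg. Ly6a, which encodes the Sca1 of the gate, was lower by -1.37 ± 0.21 (edgeR adjusted p = 0.00244), with group means of 123, 73.1, 102 and 37.5 CPM in RAD, RNIC-CTRL, RNIC-Tg and Tcf7-Tg. Of 9 stem and progenitor markers 2 were higher than the mean of the other groups, Flt3 and Hlf, and 1 lower, Cd48, beside 9.23% and 8.37% of all genes. Flt3 was at 445 ± 192 CPM in Tcf7-Tg and 548 ± 28.8 in RNIC-CTRL, and Hlf at 406 ± 129 and 377 ± 59.8, and the libraries of these groups overlap for both. The higher ones numbered 4 in DESeq2 and without RNIC-Tg replicate 1, and 1 without Tcf7-Tg replicate 3, where Hlf had an adjusted p of 0.0552 in edgeR. The part of these differences in the absence of the 3 genes was not tested.

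The genes whose levels followed the members most closely over the 12 libraries included many pseudogenes and predicted genes, as a description of genes that are low in Tcf7-Tg. By Pearson's r of log2 CPM these were Gm9825 (0.988), BC002163 (0.987), Gm2093 (0.978), Gm12666 (0.977) and Gm13443 (0.976) for Itln1. For Klk1b22 they were Gm7125 (0.996), Gm11223 (0.989), Gm8730 (0.981), Gm12666 (0.980) and BC002163 (0.977), and for Ccnb1ip1 BC002163 (0.982), Klk1b22 (0.970), Ifi214, Atp6v0c-ps2 and Gm7125. Of the 10 distinct genes that are not members, 6 are annotated as pseudogenes, beside 4 of the 22 genes at 0 only in Tcf7-Tg (18.2%) and 7.83% of all genes tested; the genes were picked with the Tcf7-Tg zeros, so nothing is read from these shares. All these r include the Tcf7-Tg libraries, where the members are at 0. Over the 9 other libraries r was lower for each gene named. It ran from 0.37 to 0.77 for Itln1, from -0.03 (Gm8730) to 0.77 (Gm7125) for Klk1b22 and from 0.28 to 0.76 for Ccnb1ip1. Low in Tcf7-Tg does not mean absent there: Gm11223 had 209 to 321 counts in those libraries and Gm8730 761 to 894. Among the members themselves r over those 9 libraries was -0.35 for Itln1 and Klk1b22, 0.29 for Itln1 and Ccnb1ip1 and 0.30 for Klk1b22 and Ccnb1ip1, so outside Tcf7-Tg they did not vary together closely.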

How the data were processed

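LSK cells were profiled in 12 libraries of 75 nt single-end reads. The authors deposited raw counts per Ensembl gene, per sample and as a table that agrees in every cell, and log2 CPM values for 15759 genes, in which members at 0 counts carry the value of a 0 count (-6.36 to -6.20). HISAT2, featureCounts 1.4.4, limma, edgeR 3.28.0 and the mm10 build are named in the submitters' processing notes, as are cutadapt 1.9.1 and bcl2fastq 2.17. Strand settings are not given in the sources used here.

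Counts were scaled by TMM and filtered with filterByExpr (16024 genes). All libraries entered 1 quasi-likelihood fit (edgeR 4.0.16, R 4.3.3), with two-sided tests called at a Benjamini-Hochberg adjusted p under 0.05. SE is the log2 fold change divided by the root of F. These p-values measure the spread between these libraries, which may be technical. Correlations used a prior count of 0.5. DESeq2 1.42.0 and limma 3.58.1 (voom) were alternatives, with others on scaling, filters, groups and libraries. The fit was tested on simulated data.

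The members and lists were chosen with earlier results of these data known. Named genes are the members, label genes, nearest and up to 5 changed neighbours per member, tested kallikreins, up to 4 changed genes per list, 5 genes most like each member, the 10 top genes of the pattern and 5 on each side of it. Of 127 list symbols 123 were matched. Flt3, Hlf, Cd48 and list genes named with counts alone were chosen after their values were seen where outside this rule. 1 of the genes that the rule names is left out of the text.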

Additional observations from a re-analysis of the deposited data

How the results depend on the processing

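The calls of Itln1 held in all 19 alternatives: RNIC-CTRL against RAD ran from -1.81 to -1.52 on the log2 scale (adjusted p 2.01e-12 to 0.00705 over edgeR, DESeq2 and limma) and RNIC-Tg against RNIC-CTRL from 1.18 to 1.49 (adjusted p 5.78e-08 to 0.0277). Uncalled differences changed sign when single libraries were left out: Ccnb1ip1 in RNIC-CTRL against RAD ran from -1.34 to 0.48 (0.48 without RAD replicate 3), Ccnb1ip1 in RNIC-Tg against RAD from -0.50 to 1.36, Klk1b22 in RNIC-Tg against RNIC-CTRL from -0.53 to 0.38, and Rpph1 in Tcf7-Tg from -0.77 to 0.33. The cause was not tested.

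Counts of called genes moved more. DESeq2 gave 1468 genes lower in RNIC-Tg than RNIC-CTRL (825 in edgeR), and 1160 higher and 865 lower in RNIC-Tg than RAD (642 and 368), where a fit of those groups alone gave 360 and 178. Without single libraries the genes higher and lower ran from 1073 to 1946 and from 873 to 1698 for RNIC-CTRL against RAD, from 564 to 1463 and from 332 to 1225 for RNIC-Tg against RNIC-CTRL, from 251 to 781 and from 117 to 504 for RNIC-Tg against RAD, and from 677 to 2014 and from 557 to 1709 for Tcf7-Tg against the others. Fewer libraries enter those fits.

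Neighbours of the 3 genes that were higher in Tcf7-Tg numbered 8, with 14 in DESeq2, and 24 within 3 Mb or 2 within 100 kb, windows chosen after seeing the data. Lower ones numbered 7, with 30 and 2 in those windows. Without single libraries they ran from 6 to 13 and from 2 to 7. Genes at 0 only in Tcf7-Tg numbered 5 at a minimum of 10 counts, 22 at 1, 8 at 5, 3 at 20 and 2 at 50, and 5 to 7 without single libraries. For RAD these were 1 at 10, then 30, 2, 0 and 0, and 1 to 3 without single libraries. For RNIC-CTRL 6 genes passed at a minimum of 1 count and 0 to 1 without single libraries, and for RNIC-Tg 8 at a minimum of 1.

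Replicate numbers recur in the groups, but 6 of 18 same-number pairs correlated above 0.1 (r -0.41 to 0.46), so they were not used as pairs. For replicate 3, r was 0.21, 0.16 and 0.46 among RAD, RNIC-CTRL and RNIC-Tg, and -0.20, -0.41 and -0.35 between these and Tcf7-Tg. A block by replicate number puts all of these together, so it cannot check a run that they do not share. With a replicate block 1427 genes were higher and 1323 lower in RNIC-CTRL against RAD, 902 and 649 in RNIC-Tg against RNIC-CTRL, 471 and 265 in RNIC-Tg against RAD, 1161 and 1052 in Tcf7-Tg against the others, and 8 and 7 among the neighbours; no call of the 3 genes changed.

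A count of 0 allows up to 3 counts per library, and the 3 libraries of a group limit what the tests of Klk1b22 and Ccnb1ip1 can show.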

Other observations

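Among genes counted in the Tcf7-Tg libraries and at 0 in the 9 others, Kcnj9, a potassium channel gene that starts 0.794 Mb from Itln1, had 14, 23 and 18 counts in Tcf7-Tg. Marco, a scavenger receptor of macrophages, had 11, 29 and 9. Bach2os and Cd209g followed, each with a lowest count of 4.

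Within 3 Mb of Itln1, 28 of 87 tested genes passed the test of Tcf7-Tg against the other groups (32.2%), beside 15.7% around Klk1b22, 13% around Ccnb1ip1 and 17.6% of all genes. They include Ifi202b (-6.42), Ifi214 (-3.61) and Ifi204 (-2.51), interferon-inducible genes of 1 cluster, as well as Kcnj9 (7.18) and Kcnj10 (6.14), all as fitted log2 fold changes and named after their values were seen.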
